A study of Mus musculus with 4 samples.

Results

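The genes described here are 8 regulators known to act upstream of Sry, the Y-linked switch that starts testis development: the MAPK signalling genes Gadd45g, Map3k4, Map3k1, Map2k6 and Mapk14, and the chromatin genes Kdm3a, Ehmt1 and Ehmt2. They were taken by name from 21495 genes in a table of single-cell RNA-seq counts, and all 8 were found. The table held 52745 cells of mouse gonads with the attached mesonephros, given under 13 deposited cell types. There were 4 samples, each a pool of several pairs of gonads and the only one of its group. XY control E11.5 embryos were derived from the unedited G4 embryonic stem cell line by tetraploid complementation, which makes the embryo proper from the stem cells. The XY KO E11.5 embryos, and those of XY KO E11.75, were made in the same way from G4 cells with a homozygous CRISPR deletion of the miR-17~92 microRNA cluster in every cell. XX control E11.5 embryos carried no deletion and came from C57BL/6J males bred with 129 females. The cross was chosen for a background like that of G4 cells, a hybrid of C57BL/6J and 129. This group thus differs from the XY control in sex and in the way the embryos were made. The KO E11.75 sample has no control of its stage, so that age and deletion cannot be told apart when it is set against the XY control.

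In the bipotential gonad, pre-supporting cells of XY embryos switch on Sry for a short time, and Sry then raises Sox9 and turns them into Sertoli cells. GADD45G is a small stress sensor protein that binds and opens the kinase MAP3K4, which activates MAP2K6 and, through it, the p38 kinases, of which MAPK14 (p38 alpha) is one. MAP3K1 is a related kinase of the same tier that feeds mainly the JNK branch. KDM3A removes repressive methyl groups from lysine 9 of histone H3, including at the Sry locus, and EHMT1 (GLP) and EHMT2 (G9a) form the complex that writes the same mark. Loss of Gadd45g, Map3k4 or Kdm3a in mice is known to delay or lower Sry and to give XY sex reversal.

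The deleted cluster codes for miRNAs of 4 seed families, headed by miR-17, miR-18a, miR-19a and miR-92a. A miRNA binds mainly through its seed, bases 2 to 8, so 1 mature sequence of each family with a match in these genes is given below from RefSeq (mm10 chromosome 14, plus strand) with the seed in capitals. The cluster's miR-20a-5p and miR-19b-3p have the same seeds as miR-17-5p and miR-19a-3p.
miR-17-5p: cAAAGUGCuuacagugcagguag
miR-18a-5p: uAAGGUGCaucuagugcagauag
miR-19a-3p: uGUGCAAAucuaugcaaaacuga

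The longest 3′ UTR annotated for each member in GENCODE M21 (mm10) was searched on the sense strand for matches to the seed. A word that pairs with all 7 seed bases was searched for each family, namely GCACTTT for the family of miR-17, GCACCTT for that of miR-18a, TTTGCAC for that of miR-19a and GTGCAAT for that of miR-92a. The pairing with bases 2 to 7 followed by an A was searched as well. A 7-base word followed by an A is called an 8mer. Only 3 members held a match, namely Map3k1 with 2 8mers and 1 site of 7 bases, Mapk14 with 1 8mer and 1 site of 7 bases, and Ehmt1 with 3 sites of 7 bases. No match of any of the 4 families lay in the 3′ UTR of Gadd45g, Map3k4, Map2k6, Kdm3a or Ehmt2. The sites are printed with their flanks in the direction of the mRNA, with the match in capitals.
Map3k1 miR-17 site, chr13:111748577-111748599, minus strand: tttttggaGCACTTTttcagcaa
Map3k1 miR-19 site, chr13:111747649-111747672, minus strand: tcctggcaTTTGCACAgctatttg
Map3k1 miR-18 site, chr13:111746615-111746638, minus strand: tcctattaGCACCTTActatgtaa
Mapk14 miR-17 site, chr17:28747834-28747856, plus strand: aattttgaGCACTTTgtgctata
Mapk14 miR-19 site, chr17:28748157-28748180, plus strand: aagacatcTTTGCACAtgtgacca
Ehmt1 miR-17 site, chr2:24791688-24791710, minus strand: gtgctgcaGCACTTTccacgtct
Ehmt1 miR-18 site, chr2:24791312-24791334, minus strand: tgacgcagGCACCTTtggttgat
Ehmt1 second miR-17 site, chr2:24790319-24790341, minus strand: gctgtcttCACTTTAcagataat

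The members with a match were those with the longest 3′ UTRs. The UTR measured 2472 bases in Map3k1, 2068 in Mapk14 and 2022 in Ehmt1, against 231 in Ehmt2, 479 in Map3k4, 489 in Gadd45g, 663 in Kdm3a and 918 in Map2k6. Among 17302 genes with an annotated 3′ UTR, 43.3% held an 8mer or 7-base match of any family, and 12.3% an 8mer. In the decile of genes by UTR length that holds Map3k1, Mapk14 and Ehmt1, 66.3% had a match, whereas the share was 16.8% in the decile of Gadd45g and Map3k4. The matches describe letters in an annotated UTR and were not measured as binding sites.

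**Figure D1:**
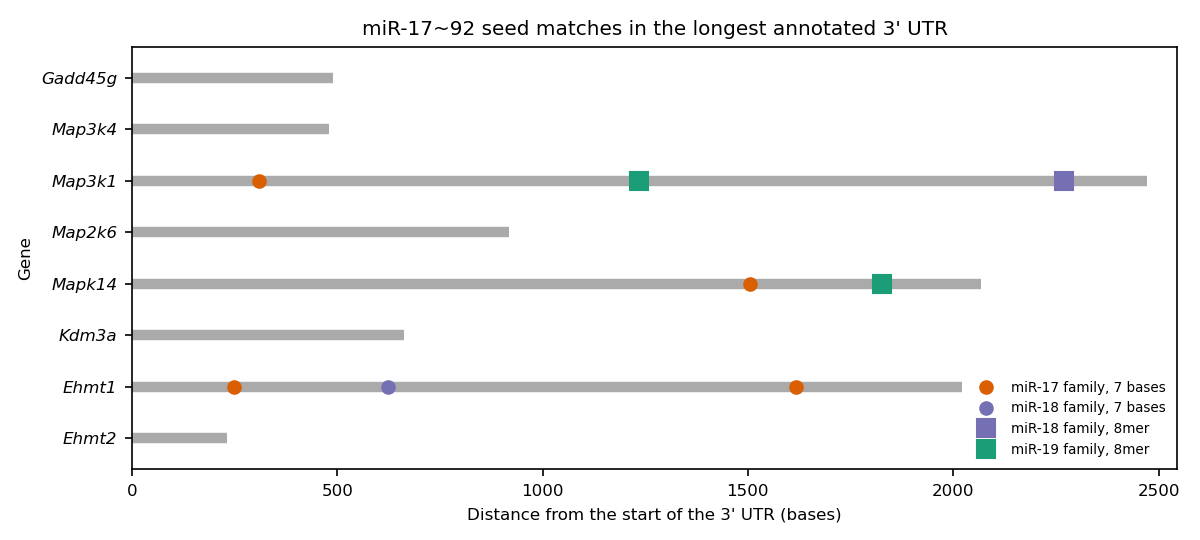
Seed matches of the miR-17~92 families in the longest annotated 3′ UTR of the 8 regulators, drawn by distance from the start of the UTR in bases (grey bars, UTR; circles, matches of 7 bases; squares, 8mers; colours, seed families). All 8 matches lie in Map3k1, Mapk14 and Ehmt1, whose UTRs exceed 2000 bases.

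Levels below are CPM, the unique molecular identifiers (UMIs) of a gene in all cells of 1 type and sample per 1000000 UMIs of those cells. Brackets hold 95% intervals, which cover counting error only, since no group had a second sample and no test between groups was possible. Samples held 37841392 to 105192238 UMIs, with a median of 3893 to 4763 UMIs per cell in XY samples and 15509 in the XX control. Mir17hg, the host gene of the deleted cluster, was at 155.8 and 161.1 CPM over all cells of the KO samples and at 19.8 and 18.2 CPM in the XY and XX controls, so that the KO libraries stood apart from the controls. Counts from the 3′ end of the host gene do not read the deleted miRNAs, so this is no check of the deletion itself. The 7 libraries shared 1 to 40 cell barcodes in any pair, and the largest share of the smaller library was 0.687%, from a pair with 12 in common. Pre-supporting cells, deposited as bipotential progenitors, numbered 1641, 1084 and 924 in the XY control, KO E11.5 and KO E11.75 and 352 in XX embryos. All 5 of their markers fixed for the check, Wt1, Nr5a1, Gata4, Sry and Runx1, ranked among the top 3 of 13 types there. Sertoli cells are the type deposited as Supporting, in which Wt1, Nr5a1, Gata4 and Sry were highest. Supporting-like cells, named below as a high type of several members, had only 1 of 3 markers (Pax8) in the top 3, since Nr5a1 ranked 4th and Lgr5 9th there. Coelomic epithelium and interstitial progenitors had 3 of 4, the exceptions being Msln, near 0, and Nr2f1, 5th. In the other types with markers all were in the top 3. Combinations of type and sample with under 20 cells, the XX Sertoli cells (2 cells) and KO E11.75 adrenal cells (8 cells), were left out of ranges and counts over types.

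Gadd45g (mm10 chr13:51846678-51848468, plus strand) had the widest span over cell types of the 8 genes, with its highest mean level in pre-supporting cells, which express Sry. Its level in pre-supporting cells was 1004 CPM (982 to 1026) in the XY control, 877 (853 to 901) in KO E11.5 and 629 (607 to 653) in KO E11.75. The XX control had 1162 CPM (1136 to 1188) in these cells. No interval of these 4 samples overlapped another, and the XX control was the highest and KO E11.75 the lowest. Sertoli cells followed with 475 to 971 CPM, then supporting-like cells, a lineage of the later rete, with 157 to 241 CPM. Coelomic epithelium, from which pre-supporting cells arise, held 69.2 to 101 CPM. Germ cells had the lowest mean level, 16.8 CPM, so that the mean over samples spanned 54.6-fold across the 13 types. The ranges of pre-supporting and Sertoli cells overlapped. In the whole order 3 of 12 neighbouring pairs had ranges over the samples that did not overlap: Sertoli over supporting-like cells, supporting-like over adrenosympathetic cells, and mesonephric mesenchyme over mesonephric epithelium.

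Kdm3a (chr6:71588972-71632990, minus strand) shared the highest place in pre-supporting cells but not the level in Sertoli cells. It was at 159 CPM (150 to 168) in XY control pre-supporting cells, 175 (165 to 186) in KO E11.5 and 211 (198 to 224) in KO E11.75. The XX control was the lowest, with 147 CPM (138 to 157). Sertoli cells held 54.7 CPM (47.8 to 62.3) in the XY control, 52.9 (22.8 to 104) in KO E11.5 and 89.6 (72.2 to 109.9) in KO E11.75. In each XY sample the Sertoli cell level was therefore below that of pre-supporting cells, with intervals that did not overlap, although the KO E11.5 value rests on 24 cells. Supporting-like cells ranked next to pre-supporting cells with 79.1 to 141.5 CPM, and their range did not reach the lowest pre-supporting value of 147 CPM. The lowest levels were in immune cells, at 25.8 to 39.3 CPM.

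The kinases were not highest in pre-supporting cells. Map3k4, the partner of GADD45G, was the most even of the 8 genes, from a mean of 40.5 CPM in endothelial cells to 67.6 in mesonephric epithelium, or 1.67-fold, and no neighbours in its order were apart. Pre-supporting cells ranked 11th of 13 types for it. Map2k6 was among the lowest there, with 6.72 CPM (5.04 to 8.79) in the XY control and 10.0 (7.34 to 13.4) in KO E11.75. Endothelial cells, its highest type by mean, held 28.7 to 34.9 CPM. Only 46 to 55 pre-supporting UMIs stood behind each Map2k6 value. Map3k1 had its highest mean in supporting-like cells, at 107 to 129 CPM, although mesonephric tubules reached 130 CPM. It was lowest in germ cells, at 15.8 to 27.6 CPM. Mapk14 had its highest mean in immune cells, at 80.0 to 122 CPM, a range that overlapped that of germ cells (32.4 to 86.0). The other 12 types had means between 38.5 and 55.7 CPM with overlapping ranges.

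Ehmt1 and Ehmt2, the paired writers, both had their lowest mean levels in germ cells. Ehmt1 was at 37.1 to 62.3 CPM in germ cells and at 153.5 to 195.5 CPM in mesonephric epithelium, its highest type by mean. That range overlapped the one of mesonephric mesenchyme (138.6 to 158.5). Ehmt2 was at 33.5 to 74.5 CPM in germ cells and reached 91.2 to 135 CPM in supporting-like cells. The latter range overlapped that of mesonephric epithelium (90.5 to 133.6). Across the 13 types the log2 levels of both genes had a Pearson r of 0.64 in the XY control, 0.85 in KO E11.5, 0.53 in KO E11.75 and 0.46 for XX embryos. For Gadd45g and Kdm3a the values were 0.59, 0.57, 0.59 and 0.69, while for Gadd45g and Map3k4 they were -0.43, -0.35, -0.20 and -0.79. These correlations describe 13 types that share a library in each sample, and types of few cells weigh as much as large ones, the 2 XX Sertoli cells and 8 KO E11.75 adrenal cells included.

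**Figure D2:**
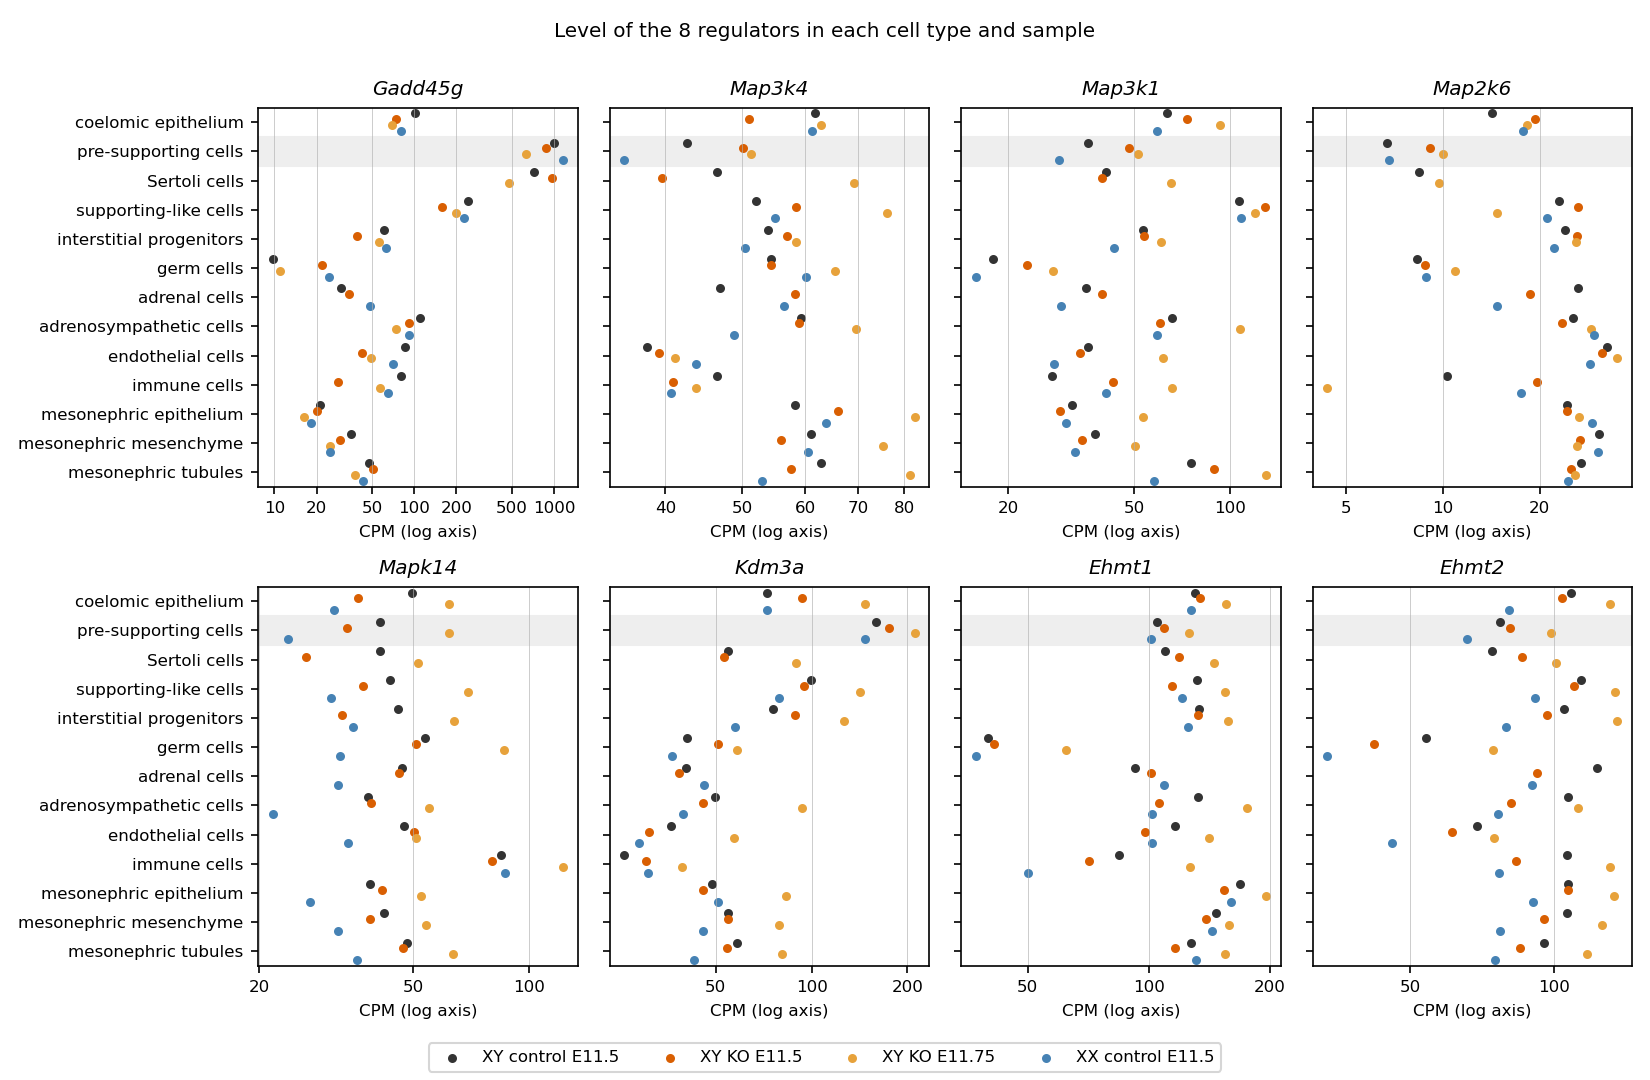
Level of each regulator in CPM (log axis) in the 13 cell types, 1 point per sample, with pre-supporting cells shaded and combinations under 20 cells left out; Map2k6 had 0 UMIs in KO E11.5 Sertoli cells and has no point there. By the mean over samples Gadd45g and Kdm3a are highest in pre-supporting cells, although in KO E11.5 the Gadd45g point of the 24 Sertoli cells is higher (971 against 877 CPM), and KO E11.75 (light orange) holds the highest point of Kdm3a in each type where it is drawn.

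The genes whose levels over the 13 types of the XY control ran closest to each member were taken among 11262 genes with at least 500 UMIs there. For Gadd45g they included Litaf (Pearson r of 0.95 and, for the same pair in KO E11.5, 0.74) and Numb (0.95 and 0.82). Kdm3a ran closest to Neu3 (0.91 and 0.82), Pcdh20 (0.90 and 0.78) and Rbbp6 (0.89 and 0.70). The closest values were for Ehmt1, with Zc3hav1l (0.98 and 0.95), Tead2 (0.98 and 0.89) and Lcorl (0.98 and 0.93). Ehmt2 was nearest to Gtf3c4 (0.92 and 0.63), Bhlhe40 (0.91 and 0.59) and Ssbp2 (0.91 and 0.66). For the kinases the nearest genes in the XY control were Dlg3, Neurl4 and Bclaf1 for Map3k4, Rcan2, Pafah2 and Sesn3 for Map3k1, Deaf1, Blmh and Zfp287 for Map2k6, and Tuba4a, Fermt3 and Polrmt for Mapk14. For these pairs r in KO E11.5 ran from 0.13 for Map2k6 with Blmh to 0.86 for Map2k6 with Zfp287. All pairs were picked for a high r in the XY control, so a lower r in KO E11.5 is not read as a change.

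The comparison of KO E11.5 with the XY control asks whether these regulators were lower in pre-supporting cells at the stage when Sry should be on. Differences are given as log2 ratios relative to the median gene of the same cells, and a gene is called when it lies past 1.5-fold, with at least 100 UMIs over both samples. None of the 8 members was called, beside 9.74% of 9725 tested genes. With 8 genes, a count of 0 does not set them apart from that share. Sry itself was at 14.6 CPM (12.0 to 17.5) in the XY control and 5.14 (3.49 to 7.30) in KO E11.5, and Sox9 at 199.6 and 20.1 CPM. Both were called lower, with log2 ratios of -1.40 and -3.22. The median over the 8 members was 0.20, beside 0 for all tested genes.

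Gadd45g lay near the median gene, with a log2 ratio of -0.10 (-0.15 to -0.05). Runs are the technical replicates of a sample, so they hold no spread between pools of embryos. The 2 runs of the XY control gave 1039 and 965 CPM and those of KO E11.5 gave 902 and 854 CPM, so that both control runs were above both KO runs. Relative to the median gene, the second run of the control differed from the first by -0.10 (-0.16 to -0.03), a difference as large as that between the samples. The sign also turned when pre-supporting and Sertoli cells were pooled, where the ratio was 0.05. That pool holds 752 Sertoli cells in the XY control and 24 in KO E11.5, and Sertoli cells of the control had less Gadd45g (724 CPM) than its pre-supporting cells, so it also differs in its mix of cells. Immediate early genes, which respond to handling as well as to signalling, were read in the same cells. Of 5 such genes, 4 had a level below the XY control in KO E11.5, with intervals that did not overlap: Jun was at 97.2 CPM in the control and 44.9 in KO E11.5, Egr1 at 24.0 and 7.80, Fos at 57.8 and 36.7, and Ier2 at 196 and 125. Atf3 had 3 and 4 UMIs only. In KO E11.75 Fos (80.0 CPM) and Egr1 (56.7 CPM) were above the control, and Jun (70.8 CPM) and Ier2 (145 CPM) below it. Their part in the Gadd45g values was not tested.

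Map3k1 had the largest ratio of the members with over 200 UMIs in total at this stage. Its level was 35.8 CPM (31.7 to 40.2) in the XY control, 48.1 (42.7 to 54.0) in KO E11.5 and 51.4 (45.1 to 58.4) in KO E11.75, beside 29.0 (25.1 to 33.4) for XX embryos. In CPM both KO samples were thus above both controls with intervals that did not overlap. Relative to the median gene, KO E11.75 over the XY control had a log2 ratio of 0.34 (0.08 to 0.59). Relative to genes of like UTR length that ratio was 0.19. The log2 ratio of KO E11.5 over the XY control was 0.52 (0.28 to 0.76), or 1.43-fold, just within the limit for a call, and 0.54 relative to genes of like UTR length. The difference between runs of 1 sample was 0.01 in the XY control and -0.02 in KO E11.5, both with intervals that included 0. In the XX control it was -0.274 (-0.695 to 0.143). The other member with an 8mer match, Mapk14, was at 41.1 CPM (36.7 to 45.8) in the XY control and 33.8 (29.4 to 38.8) in KO E11.5. Its ratio was -0.19 (-0.45 to 0.07), with an interval that included 0. In KO E11.75 its ratio was 0.41 (0.17 to 0.64), and 0.295 relative to genes of like UTR length, of the same sign as that of Map3k1. Of members without a match, Kdm3a (0.22), Ehmt2 (0.17, from -0.005 to 0.351) and Map3k4 (0.08, from -0.167 to 0.324) had this sign there too. Gadd45g (-0.86) did not, and Map2k6 was under 100 UMIs and not tested. Ehmt1, with matches of 7 bases only, had 105 CPM (97.7 to 112) in the XY control and 109 (101 to 118) in KO E11.5, with a ratio of 0.15.

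The remaining ratios at E11.5 were small or imprecise. Map3k4 was at 42.6 CPM (38.2 to 47.4) in the XY control and 50.1 (44.6 to 56.1) in KO E11.5, with a ratio of 0.33 (0.10 to 0.55). Its runs differed by 0.29 in the XY control and 0.40 in KO E11.5, as much as the samples did. Map2k6 had a ratio of 0.53 with an interval from -0.04 to 1.10, which holds both no difference and one of 2-fold at this depth. Kdm3a had a ratio of 0.23 (0.11 to 0.35). With Sertoli cells added, where Kdm3a is lower and of which the XY control has 752 and KO E11.5 24, the Kdm3a ratio was 0.58. Ehmt2 was at 77.0 CPM (71.0 to 83.4) and 81.1 (74.1 to 88.6), with a ratio of 0.17 (-0.01 to 0.34).

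**Figure D3:**
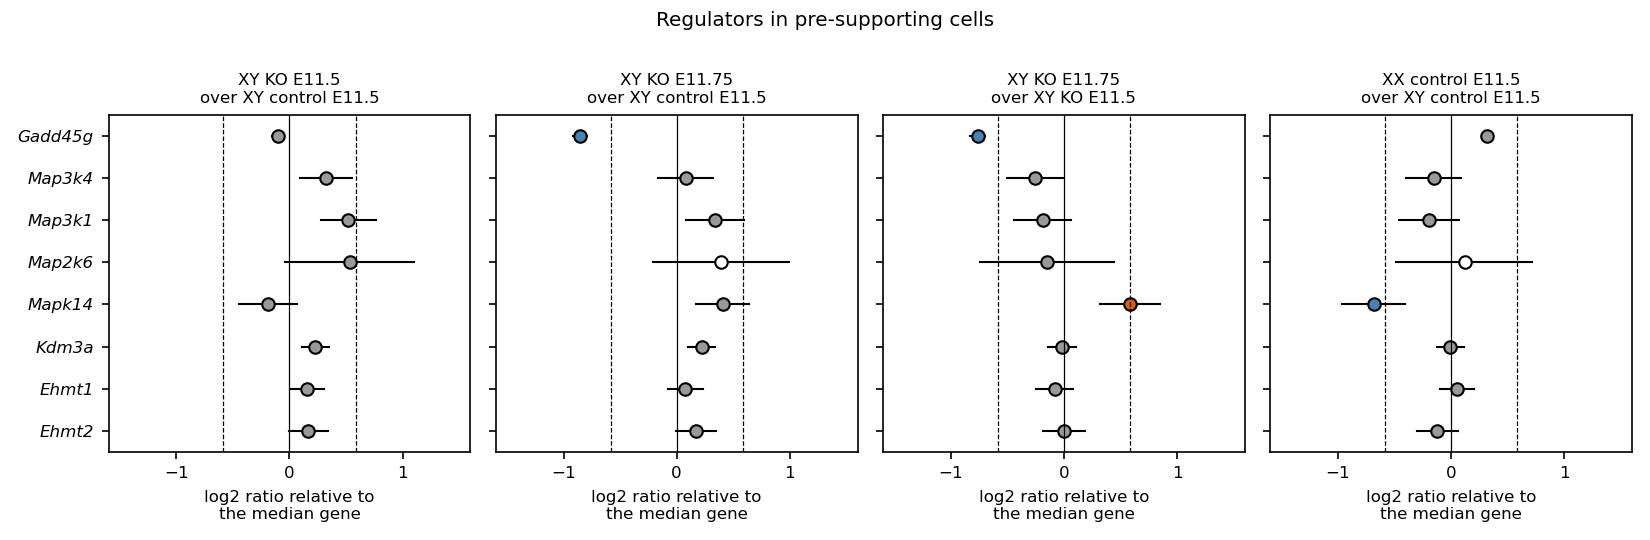
Log2 ratio of each regulator relative to the median gene in pre-supporting cells for 4 pairs of samples, with 95% intervals for counting error, and dashed lines at 1.5-fold (orange, called higher; blue, called lower; grey, not called; white, under 100 UMIs). Relative to the median gene, Gadd45g is lower by over 1.5-fold in KO E11.75 against both E11.5 XY samples and near 0 in KO E11.5.

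In KO E11.75 over the XY control, 1 of 7 tested members was called, beside 23.2% of 9742 genes. That member was Gadd45g, which fell by 0.86 on the log2 scale (-0.92 to -0.80), to 0.551 of the control relative to the median gene. Sry was at 14.4 CPM (11.1 to 18.3) in this sample, close to the 14.6 of the control, and Sox9 was at 88.0 CPM, between the 2 samples of E11.5. Against KO E11.5 the ratio of Gadd45g was -0.76 (-0.83 to -0.70), but on CPM without centring on the median gene, which lay at 0.28, it was -0.48 and not called. There 2 of 8 members were called, beside 25.5% of 9297 genes, the second being Mapk14 with 0.59 (0.32 to 0.85), at the very limit of 1.5-fold. These 2 comparisons share the KO E11.75 library. Between the remaining members the ratios over the XY control ran from 0.08 for Map3k4 and Ehmt1 to 0.41 (0.17 to 0.64) for Mapk14, which was at 61.9 CPM (54.9 to 69.5) in KO E11.75, the highest of its 4 samples.

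The KO E11.75 library stood apart in several measures. In its pre-supporting cells the median share of mitochondrial UMIs was 6.16%, against 4.40% in the XY control and 4.67% in KO E11.5, and Gm42418, which lies over ribosomal RNA sequence, had 10854 CPM against 4372 and 3887. Its ratios over the XY control rose with 3′ UTR length, from a median of -0.39 in the shortest decile of genes to 0.26 in the longest. Gadd45g lies in the third decile, with a median of -0.19, and relative to that decile its ratio was -0.67, still past 1.5-fold. Against KO E11.5 it was -0.52 relative to its decile, and no member was then called. Relative to its own decile Mapk14 had 0.29 over the XY control and 0.45 over KO E11.5, Map3k1 had 0.19 over the XY control and Kdm3a 0.29. The part of these library differences in the Gadd45g values was not tested.

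Single-cell counts gave the share of cells with a Gadd45g UMI and the mean UMIs in those positive cells. A lower level in every cell would lower both at a fixed depth, so they do not tell fewer expressing cells from less per cell. To compare samples of unlike depth, 3000 UMIs were drawn from every cell, which set aside 173 shallower cells of the XY control, 54 of KO E11.5, 93 of KO E11.75 and 3 of the XX sample. A Gadd45g UMI was then found in 81.8% (79.7 to 83.8) of XY control pre-supporting cells, 73.8% (71.0 to 76.4) in KO E11.5 and 68.0% (64.7 to 71.2) in KO E11.75. In XX cells the share was 87.7% (83.8 to 90.9). Without thinning the shares were 87.1%, 82.7%, 75.4% and 97.2%. In the positive cells the mean was 3.79 UMIs in the XY control, 3.56 in KO E11.5, 2.87 in KO E11.75 and 3.87 in XX cells. Both quantities were lowest in KO E11.75, the sample with the lowest level. Cells with 6 or more UMIs made up 18.6% of the XY control, 15.0% of KO E11.5, 5.78% of KO E11.75 and 19.5% of XX cells. In mesonephric mesenchyme, which has little Gadd45g, the share was 9.48%, 7.72%, 7.36% and 6.87% at a median depth of 3573, 4586, 3293 and 14477 UMIs before thinning, far below the shares in pre-supporting cells, whose median depth was 4522, 5349, 4661 and 17498.5.

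**Figure D4:**
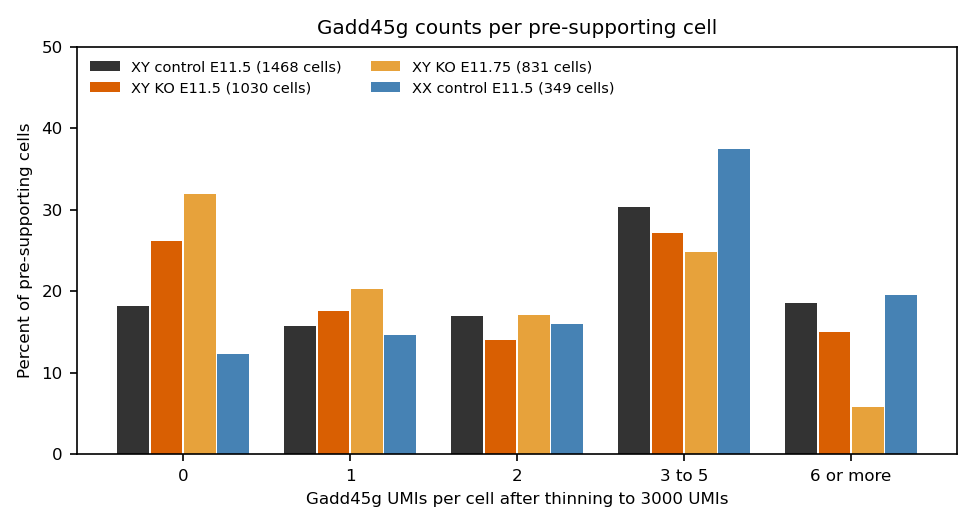
Percent of pre-supporting cells by their number of Gadd45g UMIs after thinning to 3000 UMIs per cell, 1 bar per sample, with the cells kept given in the legend. The class of 6 or more UMIs falls from 18.6% in the XY control to 5.78% in KO E11.75, and cells without a UMI rise from 18.2% to 32.0%.

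Cells with a Sry UMI were compared with the other pre-supporting cells of the same sample. In the XY control the 105 cells with a Sry UMI had 1139 CPM of Gadd45g (1052 to 1232). The 1536 others had 994 (971 to 1017). These intervals did not overlap, but they leave out the spread between cells, so the difference was not tested. Sox9 was at 507 CPM (449 to 570) and 177 (167 to 186) in the same cells. In KO E11.5 the 31 cells with a Sry UMI had 942 CPM of Gadd45g (807 to 1093) and the rest 875 (851 to 899), and in KO E11.75 the 52 cells had 638 (549 to 737) and the rest 629 (605 to 653). The other 7 members had overlapping intervals in all 3 XY samples. In Sertoli cells of the XY control Gadd45g was at 771 CPM (655 to 901) with a Sry UMI. Without one it was at 722 (696 to 749), with overlapping intervals. Median depth was 4658 UMIs in XY control pre-supporting cells with a Sry UMI and 4507 in those without. It was 5727 and 5320 in KO E11.5, and 5243 and 4624 in KO E11.75. Since detection of so few UMIs rises with depth, cells without a Sry UMI may still express it.

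The lower Gadd45g level in KO E11.75 was not particular to pre-supporting cells. Of 10 types with enough UMIs, all 10 had a ratio under 0 against the XY control, from -0.96 in endothelial cells to -0.24 in interstitial progenitors, with a median of -0.66. In 6 of the 10 the gene was called lower, where 9.32% to 15.7% of all tested genes were called lower, depending on the type, and 12.5% over all types added up. Sertoli cells were among them, with 475 CPM (434 to 519) in KO E11.75 and 724 (699 to 751) in the XY control. Kdm3a and Map3k1 went the other way, with ratios above 0 in 11 of 11 types each and 4 called higher each, beside 5.03% to 19.2% of all tested genes by type and 8.51% over all types. This sign was not particular to them. Mapk14 and Ehmt1 were above 0 in 10 of 11 types each, Ehmt2 in 9 of 11, Map3k4 in 8 of 11 and Map2k6 in 1 of 6. Of 82 combinations of member and type, 8 were called higher and 6 lower, beside 8.51% and 12.5% of all gene and type combinations. For Kdm3a the largest ratio, 0.87, was in coelomic epithelium, where it rose from 72.7 CPM (67.7 to 78.0) in the XY control to 93.4 (87.5 to 99.6) in KO E11.5 and 147 (136 to 159) in KO E11.75, with 72.5 (65.1 to 80.6) in the XX control. In pre-supporting cells the trend with UTR length in this library ran in the direction reported for Gadd45g, whose decile had a median of -0.19, and for Map3k1, with 0.14, and against that of Kdm3a, with -0.07. Its part in the counts over the other types was not tested. All types of a sample share its library, so the types are not separate observations of it.

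At E11.5 few combinations of member and type were called. Among 90 with enough UMIs, 1 was called higher and 1 lower. Of all gene and type combinations 3.72% were called higher and 4.76% lower, or 8.48% in either direction. By type the latter share ran from 4.35% to 36.1%, with a median of 6.15%. It was highest in Sertoli cells, of which KO E11.5 had 24. Both calls among the members were Gadd45g. It was at 22.0 CPM (16.0 to 29.4, 45 UMIs) in KO E11.5 germ cells and 9.74 (7.57 to 12.4, 68 UMIs) in those of the XY control, and at 42.4 CPM (35.6 to 50.1) and 86.3 (78.7 to 94.4) in endothelial cells. Map3k1 ratios ran from -0.07 to 0.52 over 11 types, with the largest in pre-supporting cells. Mapk14 ratios ran from -0.39 to 0.18 over 12 types, and Map3k4, Ehmt1 and Ehmt2 had medians of 0.07, 0.04 and -0.07.

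**Figure D5:**
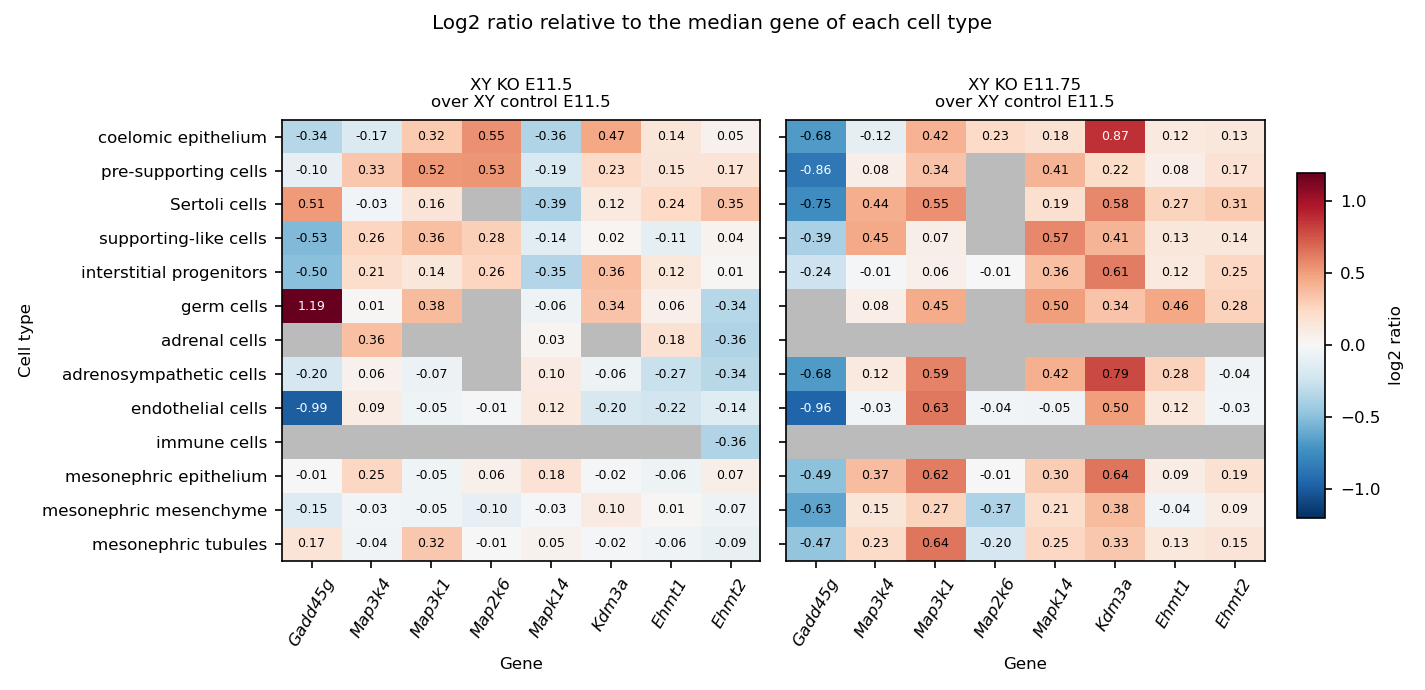
Log2 ratio of each regulator relative to the median gene of the same cell type, for KO E11.5 and KO E11.75 over the XY control (grey, under 100 UMIs over both samples or under 20 cells in one). In KO E11.75 Gadd45g is below 0 in all 10 types shown and Kdm3a and Map3k1 are above 0 in all 11, whereas in KO E11.5 Gadd45g ranges from -0.99 to 1.19.

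The XX control was compared with the XY control to read the same genes without a Y chromosome. In pre-supporting cells 1 of 7 tested members was called, beside 8.08% of 9795 genes. Mapk14 was at 23.7 CPM (20.2 to 27.7) and fell by 0.68 relative to the XY control (-0.97 to -0.41). It was below 0 in 11 of 12 types, immune cells being the exception, with 3 called lower, beside 5.56% of all gene and type combinations. The XX cells were far deeper, and with both samples held to cells of 3000 to 15000 UMIs the Mapk14 ratio was -0.34 and no longer called. Gadd45g was higher in the XX control by 0.32 (0.27 to 0.36), and between 0.21 and 0.47 under all alternatives tried. Ehmt2 was below 0 in all 12 types with enough cells, from -0.55 to -0.12, with none called. These types share the XX library, and in pre-supporting cells the ratio ran from -0.227 to 0.058 over the settings tried. Kdm3a and Ehmt1 had ratios of 0.00 and 0.05 in pre-supporting cells. No Sry UMI was found in XX pre-supporting cells, which allows up to 0.442 CPM.

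Wider lists of the same pathways, which include the members, were read beside the 8 genes, as counts in pre-supporting cells of KO E11.5 over the XY control. Of 36 tested genes of the p38 and JNK cascade, 1 was called higher and 4 lower, with a median of -0.04, beside 402 higher (4.13%) and 545 lower (5.60%) of 9725 genes. The gene called higher was Gadd45b, a paralog of Gadd45g, at 18.9 CPM in KO E11.5 and 6.72 in the XY control, a ratio of 1.58 (1.10 to 2.08). It was at 4.79 CPM in KO E11.75 and 8.26 in XX cells, so that KO E11.5 stood alone. The lowest was Mapk13, the p38 delta kinase, with 68.7 CPM in the XY control, 10.4 in KO E11.5, 32.2 in KO E11.75 and 17.1 in XX cells. Mapk12, the p38 gamma kinase, was at 16.5 CPM in the XY control and 6.14 in KO E11.5, a ratio of -1.32. Jun and Gadd45a completed the 4, named after their values were seen. Over the XY samples Mapk13 had the order of Sox9, with the XY control highest and KO E11.5 lowest, while Mapk14, the p38 gene of the members, was highest in KO E11.75.

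For the ERK cascade 0 of 27 tested genes were called higher and 4 lower, with a median of -0.09, beside 4.13% higher and 5.60% lower over all tested genes. Rps6ka3 and Rps6ka2, kinases downstream of ERK named after their values were seen, were at 92.2 and 39.6 CPM in KO E11.5 and 199.6 and 65.4 in the XY control. Etv5, a transcription factor that reads out FGF and ERK signalling, had 49.3 CPM in the XY control, 9.79 in KO E11.5, 63.0 in KO E11.75 and 5.16 in XX cells. Egr1, an immediate early gene, had a ratio of -1.52 in KO E11.5 and was higher in KO E11.75, at 56.7 CPM, and in the XX control, at 48.8 CPM, than in either E11.5 XY sample. Of 9 tested MAPK phosphatases 2 were called lower, Dusp4 (-1.07) and Dusp6 (-0.76), which dampen ERK, with a median of -0.21 over the list, beside 5.60% lower of all tested genes. In the XX over the XY control 3 of 9 were called lower, with a median of -0.165, beside 5.17% of all tested genes. In KO E11.75 over the XY control the p38 and JNK list had 2 called higher and 5 lower of 35, and the ERK list 2 higher and 4 lower of 28, beside 9.16% higher and 14.0% lower of all tested genes.

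Genes of histone H3 lysine 9 methylation were read in the same comparison, KO E11.5 over the XY control, where 9.74% of all tested genes were called. Of 13 tested writers and partners none was called in KO E11.5, with a median of 0.06, and of 6 readers none, with a median of 0.10. Of 11 demethylases 1 was called higher, Kdm4b, at 18.8 CPM in the XY control and 28.5 in KO E11.5 with a ratio of 0.70 (0.37 to 1.02), and 1 lower, Phf8, at 37.5 and 18.6 CPM with a ratio of -0.92 (-1.25 to -0.60). In KO E11.75 Kdm4b was at 30.9 CPM, a ratio of 0.54 that was not called, and Phf8 was at 42.1 CPM. The nearest relatives of Kdm3a, named after their values were seen, were Kdm3b with a ratio of 0.02 and Jmjd1c with -0.33. Of 14 tested other regulators and targets of Sry, none was called higher and 3 lower, namely Sox9, Sry and, named after its values were seen, Zfpm2, a cofactor of GATA4, at 141 CPM in the XY control and 79.9 in KO E11.5.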

How the data were processed

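Gonads with mesonephros were profiled with 10x Genomics 3′ chemistry in 4 samples of 1 group each. Each sample had 1 or 2 technical replicates, called runs here. The deposited counts are UMI counts per gene and cell, made by the authors with Cell Ranger 6.1.1 on mm10 with a second Sry exon, and the deposited percent values give each cell's mitochondrial share. The authors filtered cells by depth, mitochondrial and globin content (XX cells by cluster), removed doublets, and named types after integration with Seurat. No further cell was removed here.

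UMIs were summed per type and sample (Python 3.11.15, numpy 2.4.6, scipy 1.17.1) and given as CPM with exact Poisson intervals at the 95% level. Log2 ratios used a prior count of 0.5, were centred on the median gene (genes of 100 or more UMIs, both samples added) and carry exact binomial intervals. Past 1.5-fold counts as called. Shares of cells carry exact Clopper-Pearson intervals. Types under 20 cells were left out of orders and counts over types, a limit set after seeing the data. With 1 sample per group no test was made. The method was tested on simulated data. TMM factors came from edgeR 4.0.16. Named genes were the 8 members, Sry, Sox9, at most the 2 highest and 2 lowest called genes of each list in KO E11.5, and the 3 nearest genes by Pearson r of log2(CPM + 1), of which 1 is not reported here. Jun, Gadd45a, Rps6ka2, Rps6ka3, Zfpm2, Kdm3b, Jmjd1c and the other early genes lie outside this rule and were named after their values were seen. The members and lists were chosen with earlier results of these data known. UTR and site positions are from GENCODE M21 on mm10, which held 98.6% of the symbols. Mapk14, Ehmt1 and Map3k4 overlap other annotated genes, though not in the 3′ UTR.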

Additional observations from a re-analysis of the deposited data

Results flagged for a closer look

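Gadd45g differed in direction between cell types under the same contrast. In KO E11.5 over the XY control its log2 ratio was 1.19 in germ cells and -0.99 in endothelial cells, a gap of 2.18. The difference was not tested, since each group is 1 sample. The germ cell value rests on 45 and 68 UMIs, and germ cells of KO E11.75 held 17 UMIs, at 10.9 CPM against 9.74 in the XY control and 24.6 in the XX control. Endothelial cells of KO E11.75 were low again, with a ratio of -0.96 over the XY control.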

How the results depend on the processing

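No paired analysis was possible because each group has 1 sample. For the count of called members in pre-supporting cells 13 alternatives were run in each comparison. The share of all genes called was not taken under the alternatives, so a changed count is not read as particular to the members. In KO E11.5 over the XY control the count of 0 became 1 (Map2k6) with cells of 3000 to 15000 UMIs only. In KO E11.75 over the XY control the count of 1 became 2 (with Mapk14) under either total of UMIs without centring, and 0 at a fold of 2. In KO E11.75 over KO E11.5 the count of 2 became 1 in 8 alternatives. Under both totals without centring it was Gadd45g that was lost and Mapk14 that remained. With a prior of 5, CPM averaged over cells, Sertoli cells added, first runs only, and minimum counts of 50 or 500 it was Mapk14 that was lost. At the minimum of 500 Mapk14 had too few UMIs to be tested. The count became 0 at a fold of 2 and relative to genes of like 3′ UTR length. In the XX control the count of 1 became 0 with the mean of CPM over cells, cells of 3000 to 15000 UMIs, a fold of 2 and a minimum of 500 UMIs. Mapk14 again had too few UMIs to be tested at that minimum. The share of pre-supporting cells with a Gadd45g UMI, thinned to 2000 and 5000 UMIs, was 74.2% and 88.1% in the XY control, 66.4% and 83.6% in KO E11.5, 57.6% and 80.0% in KO E11.75, and 83.5% and 95.9% in the XX control, and without thinning it was 87.1%, 82.7%, 75.4% and 97.2%. The 4 samples kept their order at each depth. Of 318 alternative log2 ratios of single members, 280 stayed within the 95% interval, 38 moved out of it and 0 reversed a called direction. Only a called ratio could count as reversed, and ratios near 0 did change sign. In KO E11.75 over KO E11.5 Kdm3a kept its sign in 4 of 10 alternatives. In the XX over the XY control Ehmt1 kept it in 6 of 10. Depth limits Map2k6 most.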
